A study of Arabidopsis thaliana with 10 samples.

Results

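The transcripts of 4 Arabidopsis genes for NAD(P)-linked oxidoreductases, AT4G31530, AT1G32220, AT3G04650 and AT1G04420, were followed through opposite changes of light quality. The group joins genes for proteins with a Rossmann fold and other NAD(P)-linked enzymes. The members are 4 of 644 genes that had a spot of their own, among 3261 features on the array, and each was read from 1 spot. They were chosen by their log2 ratios after the shift to PSI light, for opposed or late changes there. The values of that shift are therefore a description and support nothing by themselves. All 4 genes had a ratio above 0 in all 10 columns of the table.

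The leaf RNA came from Arabidopsis thaliana, accession Col-0, raised for 21 days in soil and short days of white light, 8 h light and 16 h dark. In the shift to PSI light, plants adapted to PSII light, which excites photosystem II more than photosystem I, were transferred to PSI light, which does the opposite. Harvests followed after 30 min, 2 h, 8 h and 48 h. In the shift to PSII light, plants adapted for 3 days to PSI light were transferred to PSII light and harvested after the same times. Each shift also has a column for plants kept in white light as a further control, and what these columns are set against is not stated. No mutant, transgene or chemical was used, and each sample was a pool of at least 250 to 500 plants.

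Each of the 10 conditions has 1 column of ratios, which carries no replicate error. No difference below could be tested, and values are set only beside the spread of all features. The sample labels name thylakoid membranes as the source, whereas the protocol and the design text describe total RNA from leaves. The direction of the ratios is not stated. A ratio was taken to stand for the named condition divided by plants harvested before its shift, which the design text makes likely. If they run the other way, each "above" and "below" turns round. The direction is least settled at 2 h and 48 h of PSI light, where the columns run against others of that shift across features. Whole leaves were sampled, so less RNA per cell and fewer cells that express a gene cannot be told apart.

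Oxidoreductases that use NAD(H) or NADP(H) move electrons between a substrate and a nicotinamide cofactor. The Rossmann fold is the protein fold in which many of them bind that cofactor. In leaves, the photosystems reduce NADP through ferredoxin, and the light favoured by one photosystem changes the redox state of the electron carriers that link both. The gene table used here gives no product name for any of the 4 genes, so no substrate or reaction is given to a single member.

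Ratios are given first as deposited and then as the log2 ratio minus the median log2 ratio of the column. On this centred log2 scale 0 is the column median, and 1 and −1 are 2-fold above and below it. Columns were centred because their median ratios lay between 0.588 and 1.26. In the shift to PSI light, 3 of the 16 member values lay 2-fold or more from the median. The same held for 7.90% of 12538 values of all features in these columns. The share of features that far out was 5.86% for 30 min, 2.34% for 2 h, 11.5% for 8 h and 12.0% for 48 h. Nothing is read from this count of members, because these columns chose them. The rule of choice does not name the shift to PSII light, but the members were chosen with earlier results of these data known. In that shift 1 of 16 values lay that far out. Shares over all features were 5.48% for 30 min, 9.22% for 2 h, 4.07% for 8 h and 16.9% for 48 h. In white light 1 of 8 values lay that far out. The share of features was 2.38% in the column that belongs to the PSI light shift and 13.9% in the other. Pooled over columns, 8.84% of all values in PSII light and 8.05% of those in white light were past 2-fold, so 1 such member value in each is near the background.

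**Figure D1:**
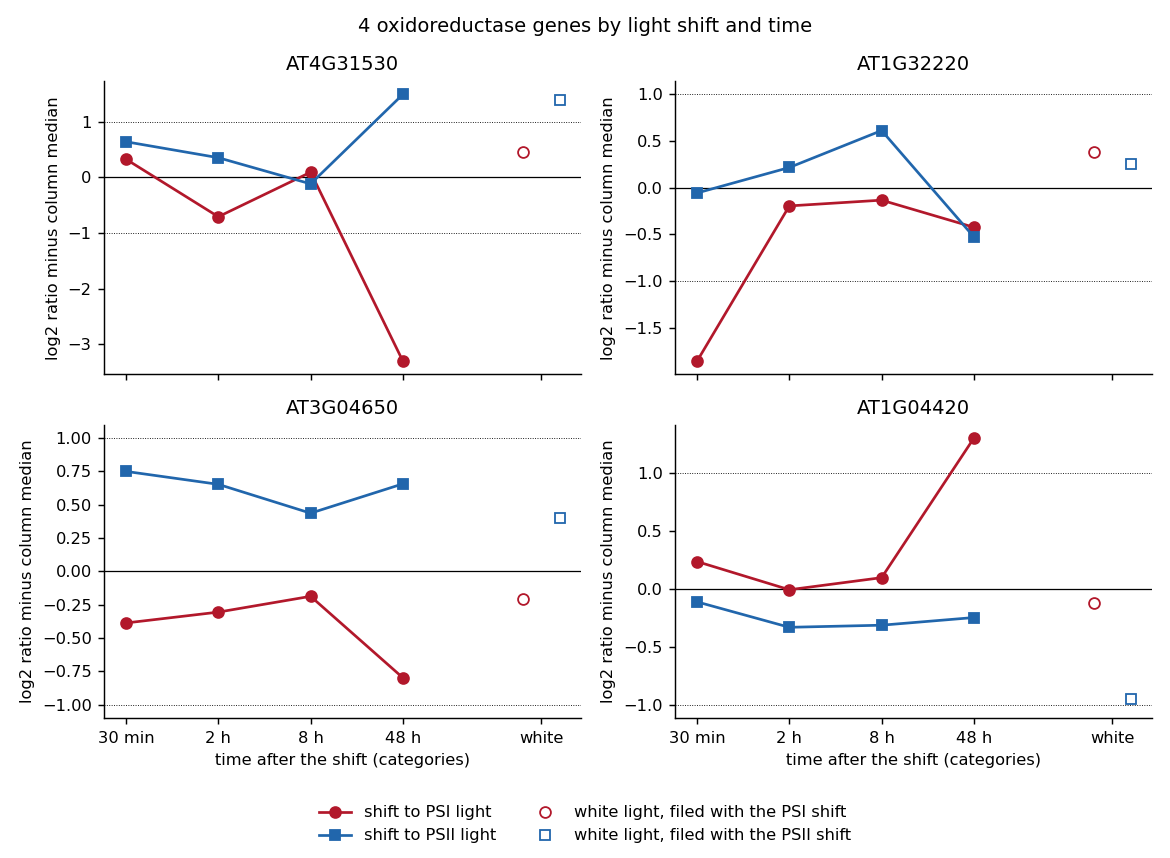
Centred log2 ratio (log2 ratio minus column median) of each gene by time after the shift. Filled red circles are the shift to PSI light, filled blue squares the shift to PSII light and open symbols the white light columns, with 1 value per point and no error. Dotted lines mark 2-fold, and the vertical scales differ between panels. The lowest point is AT4G31530 at 48 h of PSI light, at −3.30.

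AT4G31530 had the widest swing of the 4 genes. Its lowest centred value was at 48 h of PSI light and its highest at 48 h of PSII light. After the shift to PSI light its ratios as deposited were 0.907, 0.686, 0.732 and 0.128 from 30 min to 48 h. On the centred log2 scale these were 0.32, −0.71, 0.09 and −3.30. The gene thus stayed near the column median at 30 min and 8 h, lay below it at 2 h, and stood at 0.102 times the median at 48 h. Only 10 of 3163 features were lower at 48 h. At 2 h, where the column as a whole was narrow, 4.05% of features were lower.

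After the shift to PSII light the same gene had ratios of 1.33, 1.19, 1.07 and 1.65 from 30 min to 48 h. The centred log2 values were 0.64, 0.35, −0.12 and 1.49, so it lay above the median at 30 min, 2 h and 48 h and slightly below it at 8 h. At 48 h it stood at 2.81 times the column median, and 6.73% of 3000 features were higher. As deposited, that value is 0.72 on the log2 scale and under 2-fold, since the median ratio of the column was 0.588. The white light column that belongs to the PSII light shift held a ratio of 2.08, or 1.39 on the centred log2 scale. In its counterpart of the PSI light shift the gene had a ratio of 1.22 and a centred log2 value of 0.46. The span of AT4G31530 over the 10 columns was 4.79 on the log2 scale, and 12 of 2783 features with a value in every column spanned more (0.431%). With the 48 h column of PSI light inverted the span is 4.01, and 41 features (1.47%) spanned more.

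AT1G32220 differed from the other members by an early low value. Its ratios after the shift to PSI light were 0.200, 0.979, 0.627 and 0.940 from 30 min to 48 h. On the centred log2 scale the 30 min value was −1.86, and the later ones were −0.19, −0.13 and −0.42. The gene was therefore far below the median in a single column of this shift, at 0.276 times the median, and under 2-fold from it later. At 30 min 5 of 3108 features were lower. Between 30 min and 2 h it moved up by 1.66 on the centred log2 scale, and 6 of 3081 features moved up by more.

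In the shift to PSII light AT1G32220 took a different course, with ratios of 0.820, 1.09, 1.77 and 0.408 from 30 min to 48 h. On the centred log2 scale these were −0.06, 0.22, 0.61 and −0.53, so the gene lay highest at 8 h and lowest at 48 h. At 8 h 5.88% of features were higher. From 8 h to 48 h it moved by −1.14, and 1.37% of 2990 features moved further down. As deposited, the 48 h value of −1.29 on the log2 scale is past 2-fold, in a column whose own median is low. In white light its centred log2 values were 0.38 in the column for the PSI light shift and 0.26 in the other.

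AT3G04650 never passed 2-fold, and it kept to one side of the median in each shift. After the shift to PSI light its ratios were 0.554, 0.907, 0.604 and 0.725 from 30 min to 48 h, with centred log2 values of −0.39, −0.30, −0.19 and −0.80. After the shift to PSII light the ratios were 1.43, 1.47, 1.57 and 0.927, with centred log2 values of 0.75, 0.65, 0.44 and 0.66. All values in PSI light lay below the median and all values in PSII light above it. Of 2839 features with a value at all 8 time points, 33 had this pattern (1.16%), and 38 had the opposite one (1.34%). Inverted, the ratios of AT3G04650 at 2 h and 48 h of PSI light would give 0.30 and 0.80, on the side of its values in PSII light. The 48 h value in PSII light is −0.11 as deposited, so there its side depends on the centring. In white light the gene had a centred log2 value of −0.21 in the column for the PSI light shift. In the column for the PSII light shift it had 0.40. As deposited, these log2 values are −0.37 and 0.07.

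AT1G04420 was the single member above the median at 48 h of PSI light. Its ratios after the shift to PSI light were 0.851, 1.11, 0.734 and 3.10 from 30 min to 48 h. The centred log2 values were 0.23, −0.01, 0.10 and 1.30. The first 3 time points thus lay close to the median, and at 48 h the gene stood at 2.46 times the median, with 71 of 3163 features higher (2.24%). A value past 2-fold at 48 h of PSI light and at no other of the 8 time points was found for 125 of 2839 features (4.40%).

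After the shift to PSII light AT1G04420 had ratios of 0.788, 0.742, 0.932 and 0.495 from 30 min to 48 h. Its centred log2 values were −0.11, −0.33, −0.31 and −0.25, so it lay below the median at all 4 times, as did 24.5% of features. As deposited the 48 h value is −1.01 on the log2 scale, just past 2-fold. Its lowest centred log2 value was −0.95, in the white light column for the PSII light shift, where 6.57% of features were lower. In the other white light column it was −0.13.

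**Figure D2:**
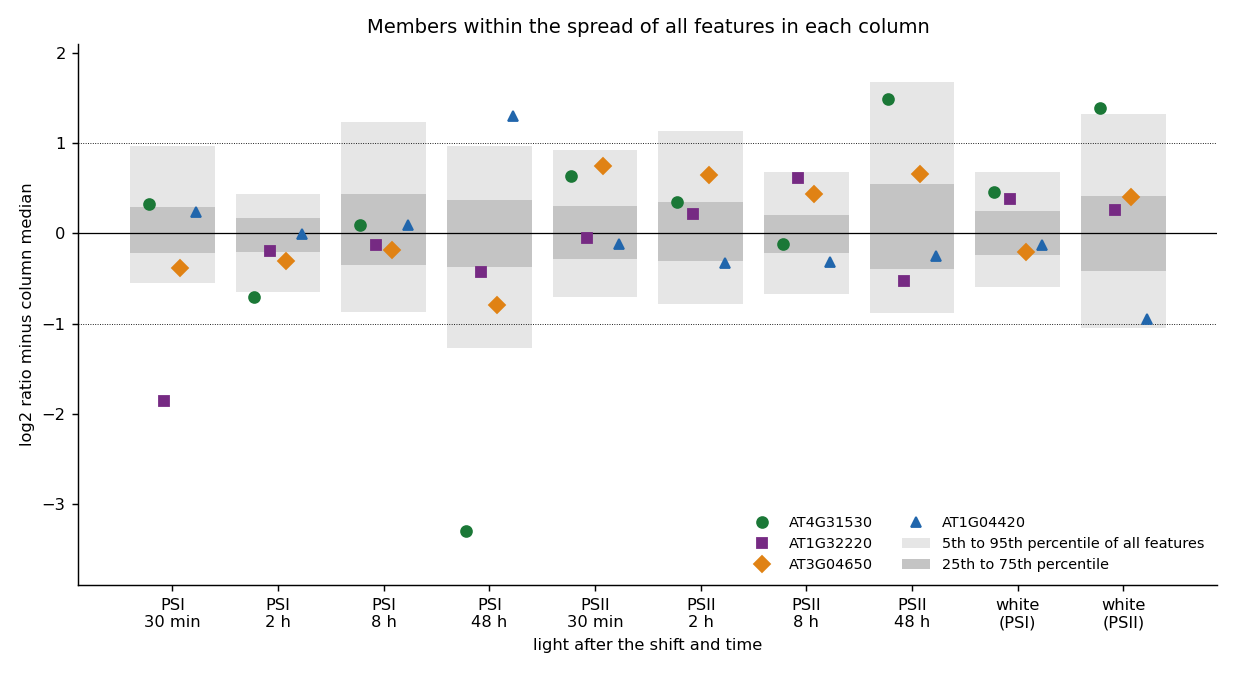
Centred log2 ratio of each gene (coloured symbols) in the 10 columns, over bars for the 5th to 95th and 25th to 75th percentiles of all features. AT4G31530 at 48 h of PSI light (−3.30) and AT1G32220 at 30 min of PSI light (−1.86) lie far under the bars. At 8 h of PSI light all 4 genes lie within the inner bar, between −0.19 and 0.10.

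At matched times the shifts were set side by side, as the centred log2 value in PSI light minus that in PSII light. The shifts have different plants before the shift as their base, so this is a difference of ratios and not of levels. For AT4G31530 the difference was −0.31, −1.06, 0.21 and −4.79 from 30 min to 48 h. As read here, the gene at 48 h stood 27.6 times higher relative to the median in PSII light, and 6 of 2962 features had a lower difference. Inverting the PSI light column at 48 h turns this difference to 1.81, with 44 features higher. Inverting the one at 2 h turns the difference there from −1.06 to 0.35. AT1G32220 had differences of −1.80, −0.41, −0.75 and 0.10 from 30 min to 48 h. As deposited its differences are −2.03, −0.15, −1.50 and 1.20. The shifts thus lie furthest apart at 30 min on both scales, but close together at 48 h only after centring. With the PSI light column at 48 h inverted, the centred difference there is 0.95, with 9.93% of features higher. AT3G04650 had −1.14, −0.96, −0.62 and −1.45, and AT1G04420 had 0.35, 0.32, 0.41 and 1.55. Each gene thus kept one direction as the columns are read here, but not with the PSI light column at 48 h inverted, which gives 0.14 for AT3G04650 and −1.05 for AT1G04420 at that time. As read, 2.70% of features had a higher difference at 48 h than AT1G04420, and 14.2% a lower one than AT3G04650. Inverted, 13.4% were lower than AT1G04420 and 41.5% higher than AT3G04650. As deposited, the difference of AT1G04420 at 8 h is −0.34, that of AT4G31530 at 8 h is −0.54, and all others keep their sign. Sizes move as well, since AT3G04650 at 48 h has −0.35 as deposited and AT1G04420 has 2.65.

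**Figure D3:**
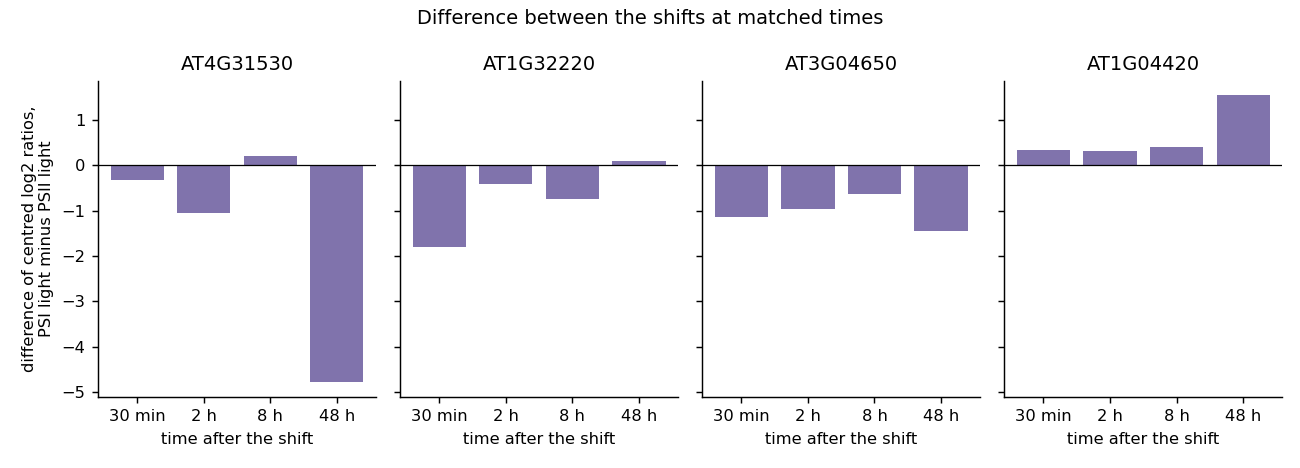
Difference of the centred log2 ratios, shift to PSI light minus shift to PSII light, by time after the shift, 1 panel per gene. Bars start at 0 and have no error, since each column is a single value. As the columns are read, AT3G04650 is below 0 and AT1G04420 above 0 at every time, and the longest bar is AT4G31530 at 48 h (−4.79). Inverting the PSI light column at 48 h would turn these 3 bars there to 0.14, −1.05 and 1.81.

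Within the group, the genes did not share one course. Over the 10 columns, Pearson's r of the centred values was 0.72 between AT4G31530 and AT3G04650, and −0.88 and −0.74 between each of these and AT1G04420. AT1G32220 had an r of 0.09 with AT4G31530, 0.41 with AT3G04650 and −0.42 with AT1G04420. Columns of a shift share their reference plants, and the genes were picked for opposed changes, so these figures only describe them. Without the 48 h column of PSI light the r between AT4G31530 and AT1G04420 was −0.56, and between AT4G31530 and AT3G04650 it was 0.54.

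AT4G31530 also appears in the annotation of another spot, which is paired with AT5G02240 and AT2G37660 as well and so was not counted as its own. That spot lay between −0.25 and 0.71 on the centred log2 scale and passed 2-fold in no column. Its deposited ratio at 48 h of PSI light was 1.32 and its centred log2 value 0.06, against −3.30 for the gene's own spot. At 48 h of PSII light it had 0.71, against 1.49 for the own spot. The spots lay on the same side of the median in 6 of 10 columns. Which of the 3 annotated genes the shared spot measures was not tested.

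**Figure D4:**
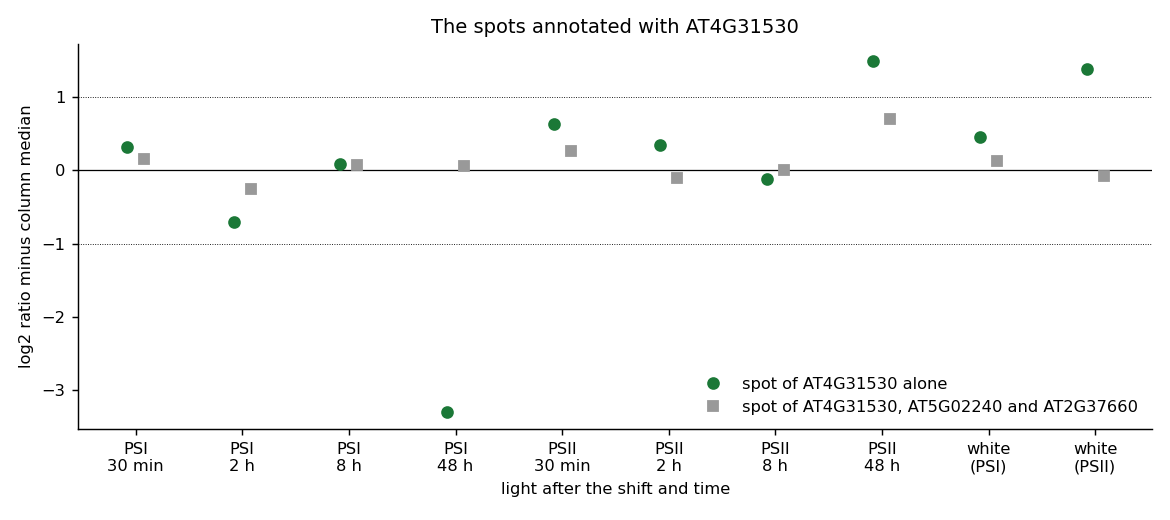
Centred log2 ratio in the 10 columns for the spot of AT4G31530 alone (green circles) and for the spot annotated with AT4G31530, AT5G02240 and AT2G37660 (grey squares). The spots are furthest apart at 48 h of PSI light, at −3.30 and 0.06.

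For each member, the 3 genes with the most similar course were taken from 550 other genes with a value in every column, by Pearson's r over the 10 columns. For AT4G31530 these were AT4G09620 (r = 0.97), AT4G08940 (0.96) and AT4G19900 (0.96). Their centred log2 values at 48 h of PSI light were −1.80, −1.71 and −2.89, and those at 48 h of PSII light 1.55, 1.32 and 1.35. All 3 lay low in the first column and high in the second, as AT4G31530 did, but these columns helped to choose them. Of 2839 features, 104 (3.66%) lay 2-fold or more below the median in the first and above it in the second. Left without the 48 h column of PSI light, the r values were 0.93, 0.83 and 0.81, at ranks 2, 18 and 27.

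Closest to AT1G32220 was AT1G32730 (r = 0.94), whose centred log2 values were smaller, with −0.36 at 30 min of PSI light and 0.35 at 8 h of PSII light. AT4G33500 (0.83) and AT3G56250 (0.82) followed, with −1.20 and −0.22 at 30 min of PSI light. Without that single column their r with AT1G32220 was 0.58 and 0.37, whereas AT1G32730 kept 0.86.

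AT3G04650 was most like AT2G02590 (r = 0.95), AT2G11270 (0.91) and AT1G35510 (0.89). At 48 h of PSI light these genes had centred log2 values of −0.76, −0.60 and −0.81, and at 48 h of PSII light they had 1.22, 0.50 and 1.71. Without the 48 h column of PSI light, their r values were 0.92, 0.86 and 0.87, at ranks 3, 14 and 12. Only AT2G02590 then remained among the closest 3.

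AT1G04420 was most like AT1G03660 (r = 0.92), AT2G17670 (0.90) and AT5G11650 (0.90), with centred log2 values of 0.73, 0.39 and 1.02 at 48 h of PSI light. In the white light column for the PSII light shift they had −0.88, −1.04 and −1.05, close to the −0.95 of AT1G04420. Without the 48 h column of PSI light, their r values were 0.81, 0.89 and 0.75, at ranks 11, 4 and 20. None of them then remained among the closest 3.

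**Figure D5:**
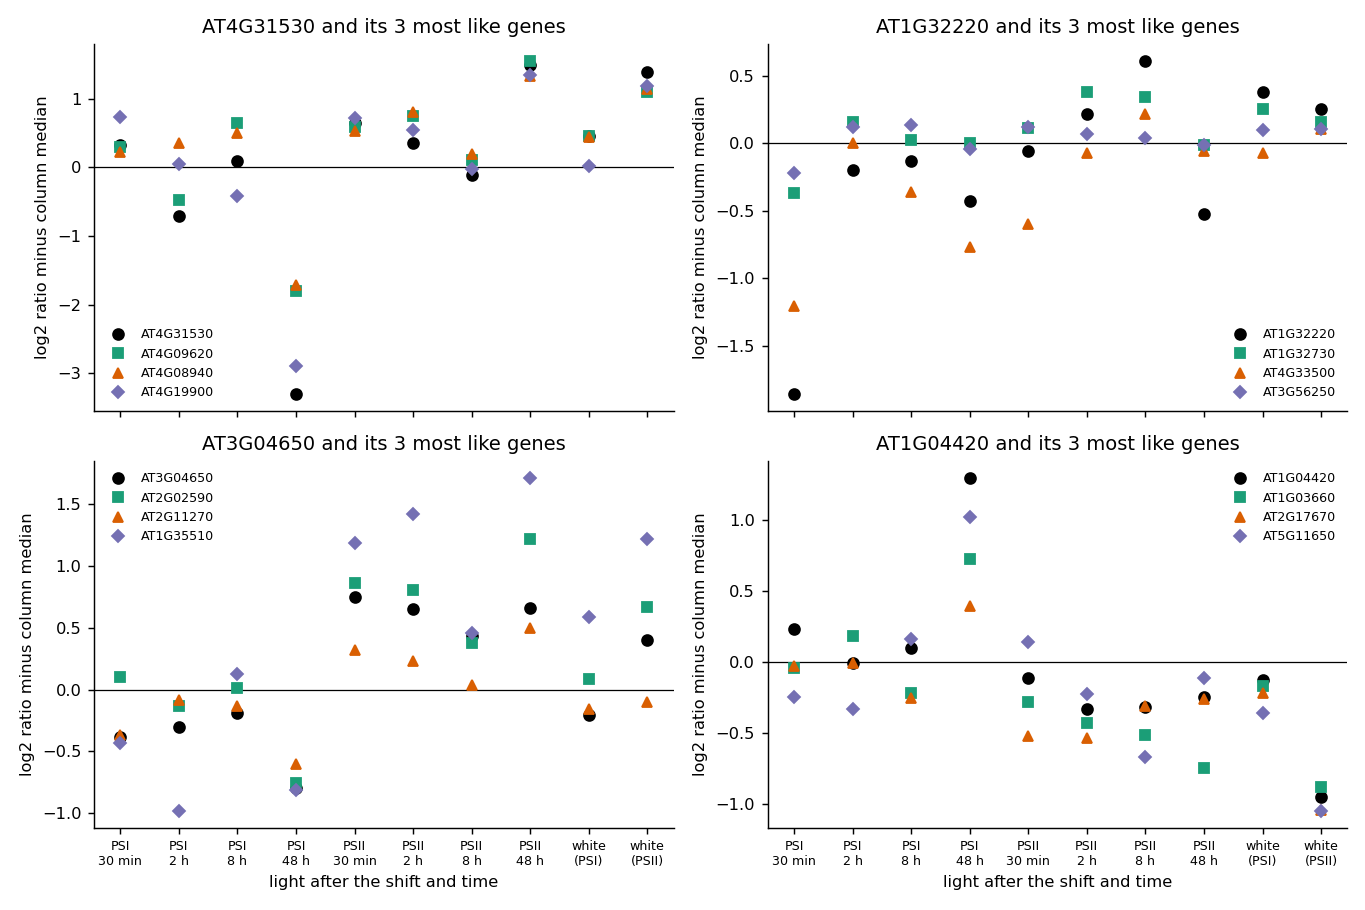
Centred log2 ratios in the 10 columns for each member (black circles) and its 3 most like genes (coloured symbols), 1 panel per member with its own vertical scale. The genes most like AT4G31530 are all low at 48 h of PSI light, between −2.89 and −1.71, and all high at 48 h of PSII light. Both columns were among those used to choose these genes.

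Other oxidoreductase genes were looked up in 4 lists that hold 62 genes, of which 6 had a spot of their own and 5 had a value. AT2G27680, the single aldo-keto reductase gene of the lists with its own spot, was listed at 0 in all columns. A further 4 genes came from the words reductase, dehydrogenase or oxidoreductase in the gene table, which made 9 in all. Of these, 4 lay 2-fold or more from the median in at least 1 column, all 4 above it and 1 of them also below it. Among all features with any value the share was 38.0%.

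NTRC, a chloroplast thioredoxin reductase that takes electrons from NADPH, lay above the median throughout, from 0.01 at 2 h of PSI light to 2.25 in the white light column for the PSII light shift. NdhS, a subunit of the chloroplast NADH dehydrogenase-like complex, had −1.0 at 48 h of PSI light and 2.26 at 48 h of PSII light, the same sides of the median as AT4G31530. AT1G74470, the geranylgeranyl reductase of chlorophyll and tocopherol synthesis, had −0.59 and 1.41 in these columns, after 1.08 at 30 min and 1.30 at 8 h of PSI light. AT5G58330, the NADP-dependent malate dehydrogenase that can export reducing power from the chloroplast, passed 2-fold once, with 1.14 at 48 h of PSII light.

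The remaining 5 genes stayed under 2-fold in all columns in which they had a value. GLDH, the enzyme of the last step of ascorbate synthesis, lay between −0.75 and 0.57, and NdhN, another subunit of the NADH dehydrogenase-like complex, between −0.56 and 0.41. ETFQO, which passes electrons from a flavoprotein to ubiquinone in mitochondria, lay between −0.89 and 0.54, and its ratio at 48 h of PSII light was an exact 0. AT1G24360 lay between −0.37 and 0.57 and AT4G24750 between −0.19 and 0.35. The gene table does not name these last genes, and the place of AT4G24750 in its list could not be checked.

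Column by column, the median of the 9 genes and that of the members can be set beside the 0 of all features. Columns of PSI light chose the members, so their medians there are description only. At 48 h of PSI light the members' median was −0.61, over values from −3.30 to 1.30. That of the other oxidoreductase genes was −0.03. At 48 h of PSII light the members had a median of 0.20, and the other 8 genes with a value had 0.80, 4 of them past 2-fold above. In that column 16.9% of all features were past 2-fold either way, and the 75th and 95th percentiles were 0.54 and 1.68. The lists were chosen with earlier results of these data known, so nothing is read from this count. At 30 min of PSI light the medians were −0.08 and 0.03.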

How the data were processed

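The authors hybridised 33P-labelled cDNA to nylon filters with 3292 gene-sequence tags in 3 independent experiments per time point, per the labels and the design text. Per the labels, the primer mix for the cDNA matched 1827 genes, fewer than the tags on the array. Shares over all features include every spot with a ratio above 0, whether or not the primers matched its gene. The authors deposited a linear ratio for every spot and condition. The combining of experiments, background correction, scaling and direction are not given in the sources used, and signal depth is unknown. The table held 3262 spots. Probes were named from the platform annotation through the TAIR10.1 gene table: 645 spots had 1 gene, 829 several and 1788 none, and 643 of the 645 matched. The spots of 1 gene with more than 1 spot were averaged. No genome build is named in the files, so no coordinates or sequences are given.

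A ratio of 0 was treated as missing, log2 ratios were centred on the column median, and 2-fold was the threshold, with Python 3.11.15, NumPy 2.4.6 and pandas 2.3.3. The steps were tested on simulated data. With 1 column per condition no test was possible. Named were the members, the 3 genes most like each, and all 9 measured genes of the oxidoreductase lists. Members and lists were chosen with earlier results of these data known. The gene table holds no product descriptions, so words were searched in symbols and synonyms. Alternatives tried were no centring, quantile normalization, a pseudocount of 0.432, other median sets and thresholds, inverted columns, time points left out and other likeness measures.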

Additional observations from a re-analysis of the deposited data

Results flagged for a closer look

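AT3G04650, like 1.16% of 2839 features, lay on opposite sides of the column median in the shifts. It was below the median at all 4 times of PSI light and above it at all 4 times of PSII light. Its mean centred log2 ratio was −0.42 over the shift to PSI light and 0.62 over the shift to PSII light, a difference of −1.04. With the ratios inverted at 2 h and 48 h of PSI light the first mean is 0.13. The difference was not tested, since each time point is a single column, and the columns of PSI light were used to pick the gene.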

How the results depend on the processing

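Means over the 4 times of a shift, on the centred log2 scale, kept their sign in 97 of 104 recalculations. That total includes means over the shift to PSII light recalculated with PSI light columns inverted, which could not change. Most of the 7 reversals came from inverted PSI light columns. With the ratios inverted at 2 h and 48 h of PSI light, the mean over the shift to PSI light was 1.11 for AT4G31530, 0.13 for AT3G04650 and −0.24 for AT1G04420, against −0.90, −0.42 and 0.40. With the 48 h column alone inverted it was 0.75 for AT4G31530 and −0.24 for AT1G04420. The mean of AT1G32220 over the shift to PSII light, 0.06, became −0.16 as deposited and −0.12 without the 8 h time point. For AT4G31530 the mean over the shift to PSI light was −0.10 without the 48 h time point.

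Past 2-fold were 3 member values in PSI light, 1 in PSII light and 1 in white light. As deposited these were 2 in PSII light and 2 in white light, and 0 after quantile normalization in PSII light. At 1.5-fold they were 5, 6 and 2, and at 3-fold 0 in PSII light and white light, with 2 other oxidoreductase genes in place of 4. No share over all features is given for these settings, so nothing is read from the changed counts. Quantile normalization gave AT4G31530 −1.71 at 48 h of PSI light and 0.87 at 48 h of PSII light. With the pseudocount AT1G32220 had −0.86 at 30 min of PSI light. Of the 40 member values, 8 changed sign as deposited. By Spearman's rho, none of the 3 genes most like AT4G31530 or AT1G04420 remained among the closest 3. Counting spots at 0 as lower, a choice made after seeing the data, would raise the share past 2-fold at 48 h of PSII light to 23.6%. Ratios hold no levels, so no filter on low signals could be set.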

Other observations

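The 6 genes most like AT4G31530 over the 10 columns, AT4G09620, AT4G08940, AT4G19900, AT4G17070, AT4G39690 and AT4G29890, all lie on chromosome 4, as AT4G31530 does. Of the 550 genes compared, 99 (18.0%) lie on that chromosome. Among the 20 most like genes 10 do, and without the 48 h column of PSI light 3 of the closest 6 and 8 of the closest 20 do. Chromosome 1, which holds AT1G32220 and AT1G04420, has 124 of the 550 genes (22.5%). Chromosome 3, which holds AT3G04650, has 112 (20.4%). AT1G32220, AT3G04650 and AT1G04420 had 1, 0 and 1 genes of their own chromosome among their closest 6, and 7, 2 and 5 among their closest 20. Without the column in which each lies farthest from the median, these counts were 3, 1 and 0 of 6 and 6, 4 and 1 of 20, so AT1G32220 then had as many among its closest 6 as AT4G31530. At 48 h of PSI light the median centred log2 value of the chromosome 4 genes was 0.12. Of 113 such genes 10 (8.85%) lay 2-fold or more below the column median, AT4G31530 included, and 6 (5.31%) above. On chromosomes 1, 2, 3 and 5 the shares below were 4.64%, 5.17%, 4.92% and 3.25%. The shares above were 2.65%, 5.17%, 4.10% and 2.44%. These counts were made after the names of the most like genes were seen, and their cause was not tested.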
